A study of Caenorhabditis elegans with 4 samples.

Results

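The peaks described here are the 1084 REC-8 binding sites that the authors' series-wide peak list places on chromosome V of Caenorhabditis elegans, out of 7834 sites in that list. They were chosen by chromosome name alone. REC-8 was mapped by ChIP-seq, in which chromatin is precipitated with an antibody (here a rabbit polyclonal raised against REC-8) and the recovered DNA is sequenced. All samples came from hermaphrodites of the strain fem-2(b245), whose allele lies on chromosome III, labelled as young adults with a germline and kept at 20 °C per the design text, while the growth protocol speaks of gravid adults. Chromatin was fixed with the crosslinker EGS and then with formaldehyde. The labels give 2 ChIP samples and 2 input DNA samples, and no peak list of the inputs, wild-type strain or strain without REC-8 was analysed here. Whole worms were ground, so germline and somatic chromatin were pooled, and weaker binding cannot be told apart from fewer bound nuclei. Each ChIP sample has a peak list of its own, with 275 of 2001 peaks on V in replicate 1 and 707 of 5347 in replicate 2. Depth is unknown from peak lists, so a stretch without peaks cannot be read as a stretch without REC-8. Nothing in the labels says whether the replicates came from separate cultures.

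Cohesin is a ring of SMC-1, SMC-3 and a kleisin subunit that holds sister chromatids together, and REC-8 is a kleisin used in meiosis. In worms it works beside the meiotic kleisins COH-3 and COH-4 on holocentric chromosomes, which carry no single centromere. Worm autosomes have gene-dense centres where crossovers are rare, and arms that are richer in repeats and recombine often. Chromosome V is the longest of them, its arms hold large families of chemoreceptor genes, and an array of 5S ribosomal RNA genes lies on it.

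V was described in the 3 sections of its recombination map: a left arm below 5897000, a centre from 5897000 to 16550000 and a right arm beyond, in the coordinates of WormBase WS220. The last peak of V ends at 20923996, which was taken as its extent. The left arm held 257 peaks, the centre 640 and the right arm 187. On chromosomes I to IV the same fractions of the extent were used, 28.2% for the left arm and 20.9% for the right, in place of limits from their own recombination maps.

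Peaks were sparser on V than on any other autosome in the 3 lists. The series-wide list had 51.8 peaks per Mb on V (exact Poisson 95% interval 48.8 to 55.0, counting error only), against 81.8 ± 14.8 (SD, n = 4) on the other autosomes, the lowest of which was IV with 68.6. In replicate 1 the density was 13.1 per Mb on V, against 18.8 to 25.7 on the others. In replicate 2 it was 33.8 per Mb on V, against 46.7 to 66.3. An exact two-sided test that places V among the 5 autosomes gave p = 0.2 for the series-wide density, which is the smallest p that 5 chromosomes allow (adjusted p = 0.333 over 10 comparisons, Benjamini-Hochberg). No comparison of whole chromosomes can therefore pass the threshold of 0.05.

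The low density held in each section. The left arm of V carried 43.6 peaks per Mb (38.4 to 49.2) in the series-wide list, which was close to the left arm of II with 42.1 and below those of I, III and IV with 72.2 to 87.8. The centre of V carried 60.1 (55.5 to 64.9), below the other centres with 74.1 to 112. The right arm carried 42.8 (36.8 to 49.3), below the other right arms with 50.3 to 97.2. In both replicate lists each section of V had the lowest density of its kind. The replicate 1 densities were 11.5, 14.4 and 12.3 per Mb along V from left to right, and those of replicate 2 were 25.6, 42.3 and 24.0.

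**Figure D1:**
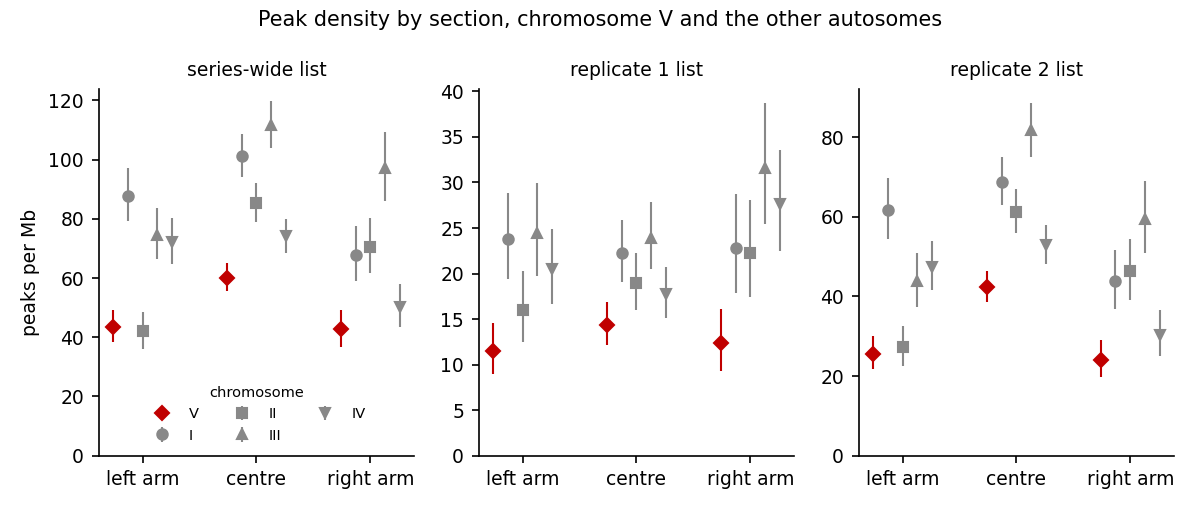
Peaks per Mb (y axis) in the left arm, centre and right arm for chromosome V (red diamonds) and for chromosomes I to IV (grey), in the series-wide, replicate 1 and replicate 2 lists; bars are exact Poisson 95% intervals. V has the lowest point in each group except the series-wide left arm, where II lies at 42.1 and V at 43.6.

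Within V, the centre was denser than the arms in each list, by unequal amounts. The centre held 60.1 peaks per Mb and the arms together 43.2 in the series-wide list, a ratio of 1.39 (log2 0.47). The ratio was 1.70 in replicate 2 (42.3 in the centre and 24.9 in the arms) and 1.21 in replicate 1 (14.4 and 11.9). Over windows of 500 kb, replicate 1 gave 14.4 ± 6.65 peaks per Mb in the centre (SD, n = 21 windows), 11.3 ± 6.46 in the left arm (n = 12) and 13.3 ± 9.44 in the right arm (n = 8), so its difference was smaller than the spread between windows. In replicate 2 the same windows gave 42.9 ± 15.0 in the centre, 25.2 ± 14.8 in the left arm and 22.5 ± 10.1 in the right arm. The log2 ratio of V in replicate 1 was 0.27, against -0.41 to 0.02 on the other autosomes, but with sections of equal length it was -0.14. In the series-wide list the log2 ratio of V lay inside the range of the others, 0.24 to 0.65 (exact p = 0.8; adjusted p = 0.889).

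The arms of V were alike in density, with a left to right log2 ratio of 0.03, between IV with 0.52 and II with -0.74 (exact p = 1; adjusted p = 1). Along V the sparsest whole window, from 3000001 to 3500000 on the left arm, had 12 series-wide peaks per Mb, with 4 in replicate 1 and 2 in replicate 2. Next came 3 windows with 26 per Mb each, starting at 500001, 2500001 and 19000001. The densest windows started at 6000001 and 10500001, with 90 per Mb each. The window starting at 6000001, just inside the left limit of the centre, was also the densest centre window of replicate 1, with 30 per Mb. Across the 41 whole windows the replicate densities had a Pearson's r of 0.45, given as a description since windows share chromosome and libraries. By section r was 0.87 in the left arm (12 windows), 0.52 in the centre (21) and -0.30 in the right arm (8).

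**Figure D2:**
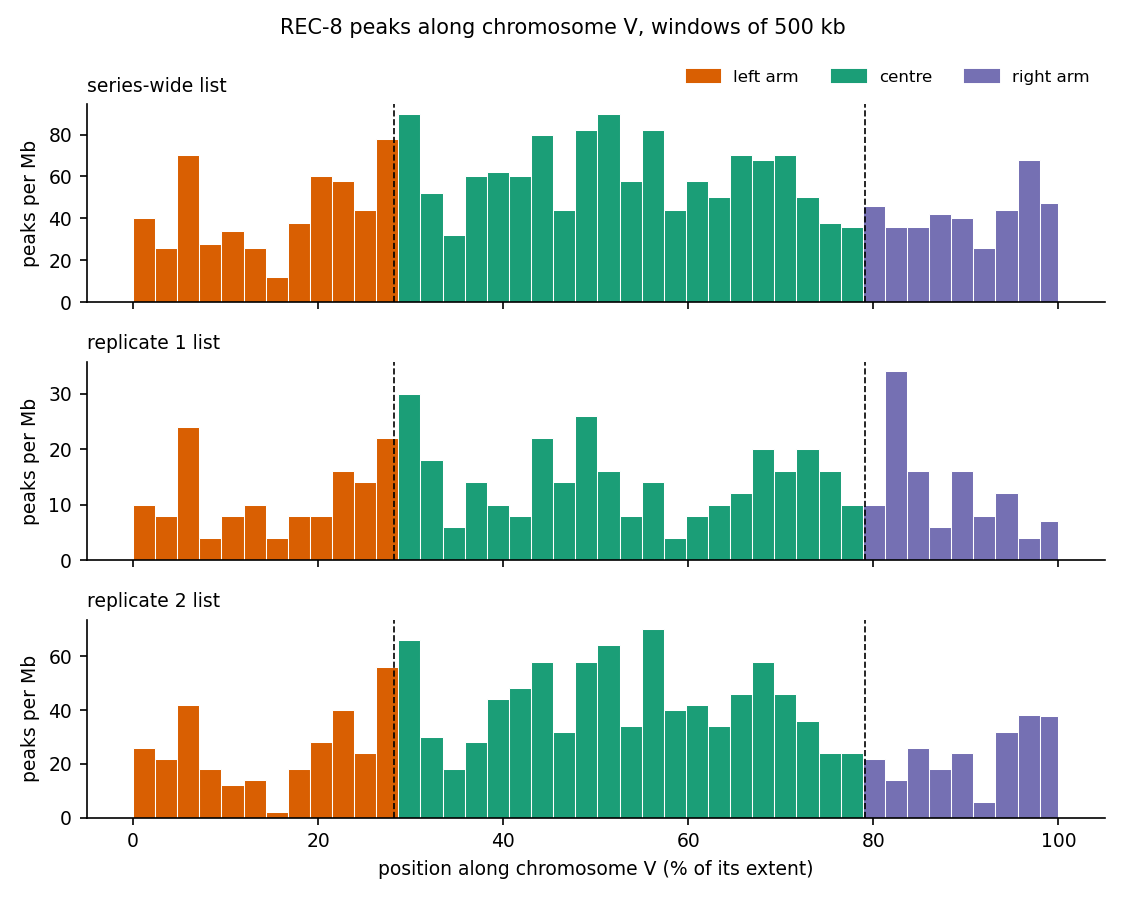
Peaks per Mb (y axis, a scale for each panel) in windows of 500 kb along chromosome V, with position as a percentage of its extent (x axis), for the 3 lists; colours give the section of each window's midpoint and dashed lines the section limits. The sparsest whole window of the series-wide list, at 12 per Mb, lies in the left arm, and the tallest bar of replicate 1, at 34 per Mb, lies in the right arm where replicate 2 has 14.

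The spacing of neighbouring peaks along V differed between the lists. In the series-wide list the median distance between midpoints was 6517 bp in the left arm, 6594 bp in the centre and 5641 bp in the right arm. In the replicate lists the arms had the longer medians: 15410 bp (left), 10601 bp (centre) and 15920 bp (right) in replicate 2, and 45915, 41536 and 49238 bp in replicate 1. For V as a whole the series-wide median was 6468 bp, the longest of the autosomes, against 4278 to 5534 bp on the others (exact p = 0.2; adjusted p = 0.333). Many peaks sat close to another: 24.0% of neighbours on V were under 1 kb apart (exact Clopper-Pearson 95% interval 21.5 to 26.7), against 22.8% to 28.0% on the other autosomes (exact p = 0.8; adjusted p = 0.889). Merging such neighbours left 824 sites on V, of which 654 were single peaks and 18 were chains of 4 or more. The largest chain of the left arm had 9 peaks over 7484 bp, from 5838709 to 5846192, and 5 of its peaks met both replicates. That of the centre also had 9, over 6994 bp from 13654071 to 13661064, with 7 replicate 2 peaks and 0 replicate 1 peaks. That of the right arm had 5, from 17120123 to 17126470, and is described further on.

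The arms differed from the centre in long gaps. A long gap was a stretch of over 100 kb between the end of a peak and the start of the next. V had 35 of them, which covered 23.3% of its extent, against 4 on I, 14 on II, 6 on III and 16 on IV (exact p = 0.2; adjusted p = 0.333). They took 29.2% of the left arm, 12.97% of the centre and 40.7% of the right arm. On the other autosomes they took 5.58% to 29.1% of left arms, 0.00% to 7.58% of centres and 3.54% to 28.3% of right arms, so V had the largest share in each section (exact p = 0.2 for each; adjusted p = 0.45 over 27 comparisons added after the values were seen). In replicate 2 the centre also had the smallest share, with 51.9% of the left arm, 20.1% of the centre and 51.4% of the right arm in long gaps. In replicate 1, with fewer peaks, the shares were 73.3%, 71.6% and 72.2%, and the sections could not be told apart. Counted against each chromosome's own mean distance between peaks, V did not stand out: with a limit of 5 times that mean (96.5 kb on V), V had 36 gaps and the others 32 to 37.

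The 3 longest gaps on any autosome lay on V. The longest ran from 2732873 to 3204506 on the left arm (471.6 kb), and 1 replicate 1 peak and 0 replicate 2 peaks lay wholly inside it. The second ran from 18241585 to 18533669 on the right arm (292.1 kb), again with 1 replicate 1 peak inside. The third ran from 7237486 to 7416533 in the centre (179.0 kb), with 0 peaks of either replicate. The next on V were from 16042466 to 16213396 in the centre (170.9 kb) and from 19199943 to 19364541 on the right arm (164.6 kb), also free of replicate peaks. Of the 35 long gaps, 30 held no whole peak of either replicate, a count that is fixed in part because 89.5% of replicate 1 peaks and 93.4% of replicate 2 peaks on V met a series-wide peak. The shortest gap counted was 100667 bp and the longest left out 97543 bp.

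Outside the long gaps the sections of V were closer in density. The left arm had 61.6 peaks per Mb of remaining sequence, the centre 69.0 and the right arm 72.1 in the series-wide list. In replicate 2 these values were 53.3, 53.0 and 49.4, and in replicate 1 they were 43.2, 50.6 and 44.5. They are descriptions, since the gaps were picked from the same peaks. Between chromosomes the centre of V had the lowest value in the series-wide list, 69.0 against 80.2 to 117 (exact p = 0.4; adjusted p = 0.675), and in replicate 2, 53.0 against 62.3 to 85.3, but the highest in replicate 1, 50.6 against 34.7 to 43.5.

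**Figure D3:**
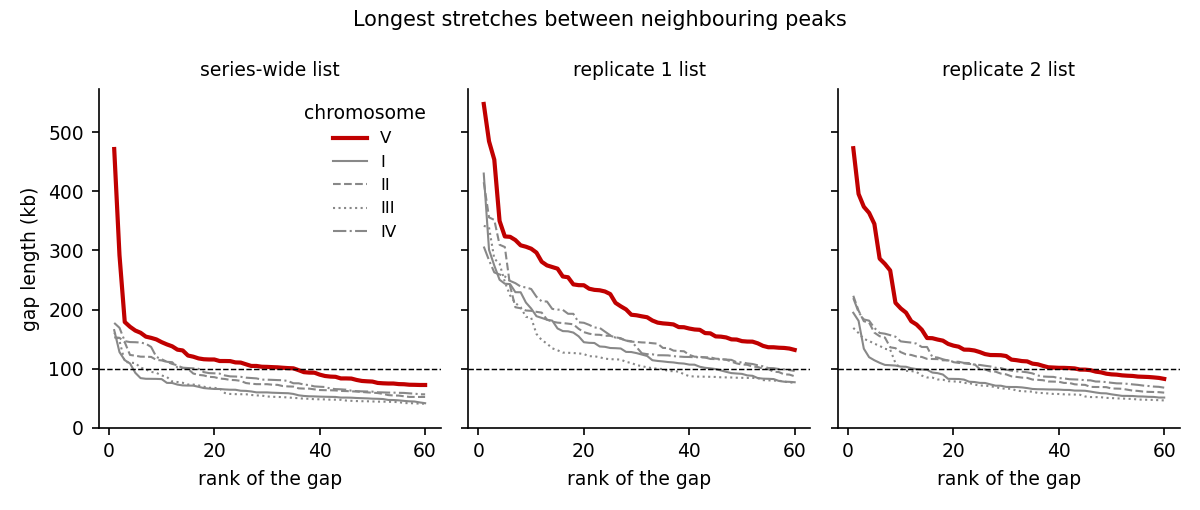
Length in kb (y axis) of the 60 longest stretches between neighbouring peaks, ranked from longest to shortest (x axis), on chromosome V (red) and chromosomes I to IV (grey) in the 3 lists; the dashed line marks 100 kb. The line of V lies above the others in each list, and its longest gap is 471.6 kb for the series-wide peaks, 547.9 kb for replicate 1 and 473.1 kb for replicate 2.

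Peak scores, the authors' own values from their peak caller, were used as percentiles within a list. The position of V against the other autosomes depended on the list. The median V peak stood at percentile 46.3 of all nuclear series-wide peaks, the lowest of the autosomes, against 50.2 to 52.8 on the others (exact p = 0.2; adjusted p = 0.333). In replicate 2 it was also the lowest, at 47.4 against 49.8 to 51.0. In replicate 1 it stood at 52.1, above I, II and III with 42.0 to 49.95 and below IV with 53.9. The left arm (62.3) and the centre (53.9) of V were there the highest of their kind, against 42.1 to 59.6 in other left arms and 38.9 to 53.5 in other centres. In the series-wide list the medians by section were 44.0 in the left arm, 49.5 in the centre and 43.4 in the right arm. The right arm had the smallest share of strong peaks. There 28 of its 187 peaks (15.0%, 10.2 to 20.9) were in the top 25% by score, against 26.2% (25.0 to 27.4) of the peaks of other autosomes, and 8 (4.28%, 1.86 to 8.26) were in the highest decile. Of the left arm 23.0% (18.0 to 28.6) were in the top 25%, and of the centre 24.1% (20.8 to 27.6). Both replicates placed the right arm lowest within V. Its median percentile was 40.8 in replicate 1 and 33.7 in replicate 2, where the left arm had 47.6 and the centre 51.3. Against other right arms, V was lowest in the series-wide list (43.4, against 49.7 to 57.7; exact p = 0.2; adjusted p = 0.45) and in replicate 2 (33.7, against 47.3 to 62.6), but not in replicate 1, where III had 38.6.

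**Figure D4:**
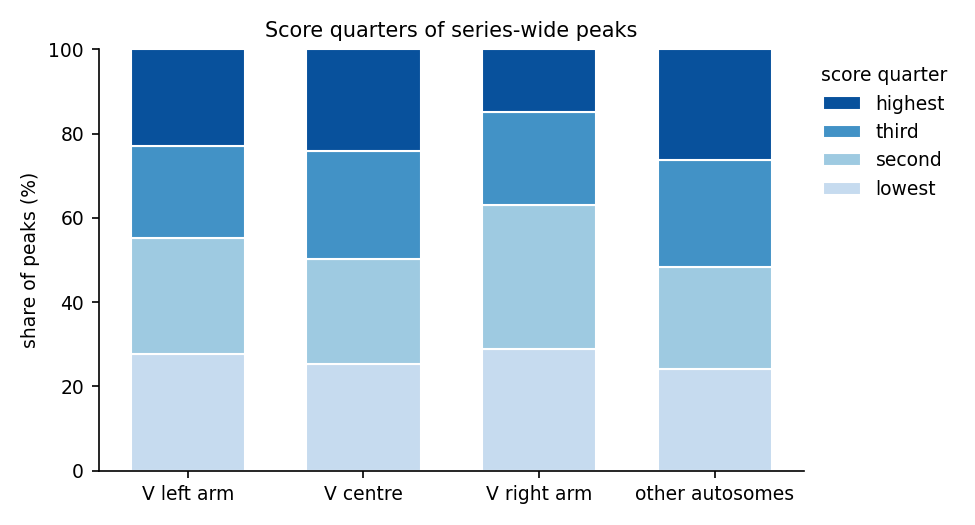
Share of series-wide peaks in each score quartile (y axis, %) for the left arm, centre and right arm of V and for the other autosomes; quartiles were set over all nuclear peaks. The highest quartile takes 15.0% of the right arm of V and 26.2% of the other autosomes.

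Peaks of V were also narrow. Their median width was 268 bp, against 289 to 308 bp on the other autosomes (exact p = 0.2; adjusted p = 0.333), with 265 bp in the left arm, 276 bp in the centre and 249 bp in the right arm. The right arm was the narrowest of the right arms in each list, with 249 bp against 305 to 321 bp for series-wide peaks, 321 bp against 337 to 463 bp for replicate 1 and 417 bp against 454 to 504 bp for replicate 2. For V as a whole the replicates differed, since the replicate 1 median was 421 bp, inside the range of the others, and the replicate 2 median of 488 bp was the lowest. Peaks of 800 bp or more numbered 11 in the left arm (4.28%), 40 in the centre (6.25%) and 6 in the right arm (3.21%). They made up 5.26% of the peaks of V, against 5.50% to 6.36% on the other autosomes. The widest of the right arm stood together, as described further on.

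Overlap by at least 1 bp set the series-wide peaks of V against the replicates. On V 196 peaks met both (18.1%, 15.8 to 20.5), against a background of 19.1% over all nuclear peaks and 20.2% (19.1 to 21.4) on the other autosomes. Replicate 2 alone was met by 503 (46.4%; background 49.3%), replicate 1 alone by 70 (6.46%, 5.07 to 8.09; background 4.71%) and neither by 315 (29.1%; background 26.9%). Replicate 1 alone took 3.23% to 5.40% of the peaks of each other autosome, below the share on V. The other shares were near the background. In the centre V had 5.16% in replicate 1 alone, against 2.30% to 3.48% in other centres. Its arms, with 7.78% (left) and 9.09% (right), were not the highest: the left arm of III had 13.4% and the right arm of IV 12.5%. Neighbouring peaks are not independent, and 5 of the 70 lay from 17384112 to 17394537. In the centre a single replicate 1 peak, from 7918477 to 7925024, met 7 series-wide peaks and 0 replicate 2 peaks. The centre share without these peaks was not computed. The exact tests gave p = 0.2 for both (adjusted p = 0.333) and p = 0.4 for neither (adjusted p = 0.571). Peaks that met neither made up 35.8% (29.9 to 42.0) of the left arm, 24.7% (21.4 to 28.2) of the centre and 34.8% (28.0 to 42.1) of the right arm. Replicate 2 alone was met by 36.6%, 52.8% and 38.0% of them. On the other autosomes 30.4% of left arm, 23.9% of centre and 32.4% of right arm peaks met neither, so the centre was again the lowest. In the right arm 18.2% of V peaks met both replicates, below the other right arms with 21.1% to 30.4% (exact p = 0.4; adjusted p = 0.675). Of the 34 right arm peaks of V that met both, 12 lay in a single window, from 17000001 to 17500000. Most of these were among 11 series-wide peaks in a stretch of 16837 bp, where each replicate had 4 peaks. The strongest peaks were shared alike: in the top 25% by score 64.3% (57.9 to 70.4) of V peaks and 66.5% (63.9 to 69.1) of peaks on other autosomes met both. The strongest peak in neither replicate had a score of 9.77 in the left arm (from 969088 to 969442), 10.9 in the centre (from 9087834 to 9088008) and 10.1 in the right arm (from 20793804 to 20794049).

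Seen from the replicates, 73.1% (67.4 to 78.2) of the replicate 1 peaks on V met a replicate 2 peak, against 78.7% (76.4 to 80.8) on the other autosomes. The left arm of V had 76.5% (64.6 to 85.9), against 75.1% in other left arms. The centre had 76.5% (68.9 to 82.9), against 85.1% (82.1 to 87.8), and the right arm 59.3% (45.0 to 72.4), against 70.1% (64.9 to 75.0). Chromosome IV was close to V, with 73.6% in all, 76.6% in the centre and 56.4% in the right arm. Of the replicate 1 peaks on V 29 (10.5%, 7.18 to 14.8) met no series-wide peak, against a background of 8.55% over the nuclear peaks of that list, and of the replicate 2 peaks 47 (6.65%, 4.93 to 8.74), against 5.31%. In the right arm these were 11 replicate 1 peaks (20.4%, 10.6 to 33.5), against 13.4% (9.97 to 17.6) in other right arms. The intervals overlap, and they treat peaks as independent, though 6 of the 11 lay from 17384112 to 17394537. Across the 183 sites of V where a replicate 1 peak and a replicate 2 peak met one to one, Spearman's rho between the scores was 0.49, and on the other autosomes it was 0.53 over 946 sites. The replicate 2 peak was the wider at 153 of the 183 sites, and at 864 of the 946 on the other autosomes. By section of V these were 35 of 46 in the left arm, 88 of 107 in the centre and 30 of 30 in the right arm.

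**Figure D5:**
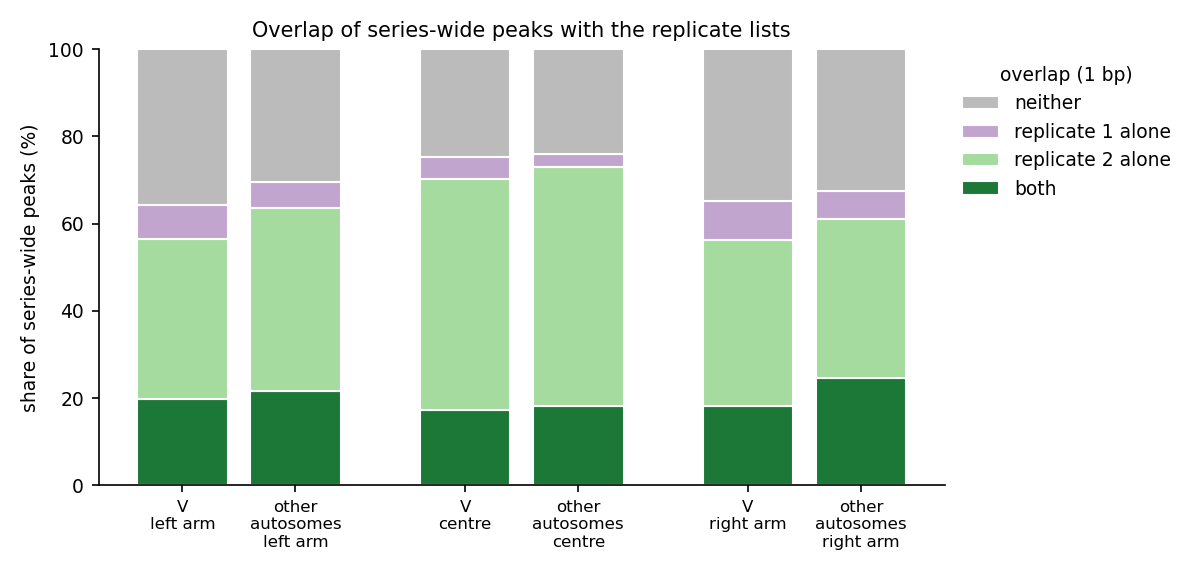
Share of series-wide peaks (y axis, %) that overlap a peak of both replicates, of replicate 2 alone, of replicate 1 alone or of neither, for each section of V beside the same section of the other autosomes. Peaks in neither take 35.8% of the left arm, 24.7% of the centre and 34.8% of the right arm of V.

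The 5 highest scoring sites of each section of V all met both replicates, which was not counted for peaks of like rank elsewhere. In the whole top 25% by score, 64.3% of V peaks and 66.5% of peaks on other autosomes did so. V held 6 of the 100 highest scoring series-wide peaks, which was 0.554% of its peaks (0.203 to 1.20). The share was 0.963% on the other autosomes (0.591% on III) and 1.28% over all nuclear peaks, X included. Of the highest 500, V held 79 (7.29% of its peaks), against 6.12% on the other autosomes and 6.38% over all nuclear peaks. In the centre the highest ran from 14038324 to 14039065 (742 bp, score 156, rank 35 of 7831), with a score of 1572 in replicate 1 and 2297 in replicate 2. The next was at 15589957 to 15590569 (score 118), then 6071333 to 6072744 (109) and 14350530 to 14351339 (101), and next 7719333 to 7721201 (90.5). The left arm had a close pair near its inner end, from 5776821 to 5777472 (score 150, rank 40) and from 5778086 to 5778575 (140, rank 49). Its next sites were 4063538 to 4063975 (101) and an adjacent pair, 1254149 to 1254792 (94.7) beside 1254975 to 1255432 (86.0). The right arm had 1 site in the top 100, from 17519062 to 17519486 (425 bp, score 106, rank 92), then 19770807 to 19771182 (95.6), 19874088 to 19874756 (72.8) and 18967607 to 18967918 (70.3), and last 16965594 to 16965959 (60.4). The site at 17519062 lies beside a long gap, which starts at 17519487, and that at 16965594 ends where another starts.

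The widest peaks of V were not its highest scoring ones. The widest peak of V ran from 9339800 to 9344824 in the centre (5025 bp, score 73.3, rank 239). Its replicate 2 score was 3100, a value at which many peaks of that list are tied. The widest of the left arm, from 723614 to 728195 (4582 bp, score 84.2), had a best score of 3100 in both replicates. Next in the centre were 13907467 to 13909829 (2363 bp) and 9601454 to 9603348 (1895 bp), and on the left arm 5639805 to 5641550 (1746 bp), then 1471188 to 1472395 (1208 bp).

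The widest peaks of the right arm stood together. From 17115367 to 17132203 (16837 bp), 11 series-wide peaks covered 10586 bp, and replicates 1 and 2 had 4 peaks each. Among them were the 3 widest of the arm, 17129665 to 17131960 (2296 bp), 17122192 to 17124003 (1812 bp) and the peak beside it that ends at 17125935 (1797 bp). The series-wide scores of the 11 peaks ran from 3.57 to 12.95, at percentiles 11.8 to 64.1. The median percentile was 46.3 for all V peaks and 89.1 for V peaks that met both replicates. In replicate 1 a single peak of 6787 bp from 17119902 had a score of 3100, tied with many others for rank 3 of 2001. The peak of nearly the same limits in replicate 2 had a score of 422 and rank 935. Of the 14 V peaks that met both replicates with a score below the series-wide median, 9 lay between 17000001 and 17500000. Whether this stretch lies in the 5S gene array was not analysed here.

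That window weighed on the replicate 1 values of the right arm. It held 17 of the 54 replicate 1 peaks of the arm, at 34 per Mb the densest window of V in that list, and 7 peaks of replicate 2. Without its peaks, but with its length kept, the left to right log2 ratio of V in replicate 1 was 0.45, against -0.10 with them. The correlation of the replicates over the remaining 40 windows was r = 0.62. Both values are descriptions only. The window was picked as the densest of replicate 1, and leaving out right arm peaks can only raise the ratio. From 17384112 to 17394537, 10 replicate 1 peaks (scores 61.0 to 548) met 0 replicate 2 peaks, and 6 of them were outside the series-wide list.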

How the data were processed

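Peaks are the authors' own. Reads were aligned with BWA to ce10 per the submitters' processing notes, and the lists name WormBase WS220 per the file headers. Replicate lists name MACS and the series-wide list MACS v2 as source; how replicates were combined, the use of the input and the handling of reads in repeats are not stated in the labels or headers, and can make or remove peaks in repeated sequence. Each peak has a score as deposited by the authors, of unstated scale (from 1.31 in the series-wide list and from 50.0 in the replicates), used by rank within a list. Depth is unknown.

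Peaks were placed by midpoint, in Python 3.11.15 (pandas 2.3.3, NumPy 2.4.6, SciPy 1.17.1, matplotlib 3.10.9); functions were tested on simulated data. Extents are the last base of any peak. The exact test counts the autosomes that lie as far from the mean of the other 4 as V does. The named regions are the 5 highest scoring and 3 widest peaks of each section, its strongest peak in neither replicate, its largest chain, the 5 longest gaps and the extreme windows. Sections, lists and regions were chosen with earlier results of these data known. Genes and sequences were not used, since the reference was of another assembly.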

Additional observations from a re-analysis of the deposited data

How the results depend on the processing

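The 10 values of V were recomputed with 45 changes of setting, and 22 more that were chosen after seeing the data. A value without 1 replicate is that of the other replicate's own list, put in place of the series-wide list. Peaks were not called again, so such values are the replicate values of the sections above and no separate check. Density, spacing, the share meeting both replicates and the centre to arms ratio kept their direction under each alternative, except that the ratio was -0.14 in replicate 1 with sections of equal length. The left to right ratio, near 0, changed sign: over the lists without 1 ChIP replicate it was -0.098 to 0.093, with sections of equal length it was -0.11 in replicate 1 and -0.014 in replicate 2, and with whole megabases -0.20 in replicate 1. The median score percentile was 47.4 to 52.1 without 1 replicate, above the mean of the other autosomes in replicate 1. The median width was 421 to 488 bp without 1 replicate, above the mean of the other autosomes in replicate 1. The share of neighbours under 1 kb apart was 17.5% to 18.3% without 1 replicate and 11.4% for peaks at or above the median score, each above the mean of the others. Long gaps numbered 43 to 77 without 1 replicate, 53 for peaks at or above the median score and 110 with a limit of 50 kb. For peaks at or above the median score, 2.99% met neither replicate, below the mean of the others. The cause of these changes was not tested. By its definition a lower gap limit cannot give fewer gaps. No paired analysis was possible because the input samples have no peaks in any comparison. Exact p-values over 5 autosomes cannot fall below 0.2, so they say nothing on stability. Unknown depth limits each statement on gaps, above all in replicate 1.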

Other observations

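Further sites of V where the replicates differed were picked after their values were seen. The highest scoring peak of the whole replicate 1 list lay in the centre of V, from 15320727 to 15322496 (1770 bp, score 3167). Its lead was small, since 36 peaks of that list had scores of 3100 or more, most of them tied at 3100. The series-wide peak at 15320727 had rank 328 of 7831, and the replicate 2 score was 930. A replicate 1 peak of 6548 bp from 7918477 to 7925024 (score 2370, rank 57 in its list) met 7 series-wide peaks with scores up to 7.19 and 0 replicate 2 peaks. Replicate 1 peaks of 2814 bp (from 9432577, score 496) and 2274 bp (from 9428411, score 351) met no peak of either other list. The strongest replicate 2 peaks outside the series-wide list were on the left arm from 2126588 to 2127327 (score 195) and in the centre from 6220954 to 6222102 (score 191).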
